A study of Mus musculus with 20 samples.

Results

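The measurements below are of the Wnt pathway in mouse kidney: the Wnt ligands, their frizzled and Lrp receptors, the secreted Sfrp and Dkk inhibitors, and the intracellular proteins Dvl, Axin and beta-catenin (Ctnnb1). Members were taken by gene name from the annotation of the array, as every non-control probe named Wnt, Fzd, Sfrp, Dkk, Axin or Dvl followed by a digit, or named Lrp5, Lrp6 or Ctnnb1. This gave 45 genes of 27827 gene names, measured by 61 of 41174 probes. Total kidney RNA was labelled with Cy3 and hybridised to 1-colour Agilent whole mouse genome arrays, 20 in all, with 4 arrays in each of 5 groups. All mice were C57BL/6 males of 8 to 12 weeks. Control mice had neither surgery nor treatment, so that no group had a sham operation. IRI mice had both renal pedicles clamped for 45 min and were killed after 6 h of reperfusion. IRI+Hemin mice received hemin, an inducer of heme oxygenase 1, at 25 mg/kg into the peritoneum 24 h before the same ischemia. IPC+IRI mice had been preconditioned by 15 min of ischemia 7 days before it, and Hemin mice received hemin without surgery. The labels number the replicates within each group without naming animals, so p-values measure the spread between these arrays.

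Wnt ligands are secreted lipid-modified proteins that bind frizzled receptors, and in the canonical branch also the co-receptors Lrp5 and Lrp6. Dvl then restrains a complex built on Axin that otherwise marks beta-catenin for degradation, and beta-catenin accumulates and drives transcription with TCF/LEF factors. Sfrp proteins bind Wnt ligands and Dkk proteins bind the Lrp co-receptors. In the kidney the pathway is known for its part in the formation of nephrons and for being switched on again after tubular injury.

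Log2 expression below is the log2 of the processed signal relative to the 75th percentile of the same array, so that a value of 0 lies at that percentile. The percentile itself lay between 146.7 and 357.9 intensity units, and 56.8% to 67.3% of the probes of an array were flagged by the scanner software as well above background. A gene was tested in a comparison where 3 or more of the 4 arrays of either group were well above background, and was called at an adjusted p below 0.05 (limma, Benjamini-Hochberg adjustment over all genes tested). Since no slide held arrays of more than 1 group, effects of slide and of group cannot be told apart. The scan day was shared by Control and IRI, and a later day by IPC+IRI and Hemin, whereas IRI+Hemin had its own. Among the 6 comparisons, IRI vs Control alone was therefore made within a scan day. Tubular markers were high in every group, with the proximal tubule list summing to a log2 level of 7.65 to 8.60 and the thick limb list to 7.82 to 8.58, which matches kidney tissue. In whole tissue, fewer cells of a type and less RNA per cell cannot be told apart.

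Of the 45 members, 27 were well above background on all 20 arrays and 36 were tested in at least 1 comparison. The 9 members tested in none were the ligands Wnt2b, Wnt3, Wnt3a, Wnt7a, Wnt8a and Wnt10b, the receptor Fzd3, and the inhibitors Dkk1 and Dkk4. Of these, 6 were well above background on no array. The ligands with a test were Wnt1, Wnt2, Wnt4, Wnt5a, Wnt5b, Wnt6, Wnt7b, Wnt8b, Wnt9a, Wnt9b, Wnt10a, Wnt11 and Wnt16. The receptors with a test were Fzd1, Fzd2, Fzd4, Fzd5, Fzd6, Fzd7, Fzd8, Fzd9, Fzd10, Lrp5 and Lrp6, and the inhibitors were Sfrp1, Sfrp2, Sfrp4, Sfrp5, Dkk2 and Dkk3. Dvl1, Dvl2, Dvl3, Axin1 and Ctnnb1 were tested throughout, and Axin2 in the comparisons with Hemin. In all, 31 members were called in at least 1 of 6 comparisons, and 21 of them with a change of 2-fold or more. Single comparisons called 35.9% to 55.8% of all genes, and the share of all genes called in at least 1 of the 6 was not counted.

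Members well above background in only 1 of the groups compared could pass into a test through that group. Over members well above background on all arrays of both groups, 14 of 27 were called in IRI vs Control, 19 of 28 in IPC+IRI vs Control and 15 of 30 in IRI+Hemin vs Hemin, against 46.8%, 54.9% and 44.2% of all genes under the same filter. The counts were 9 of 27 in IPC+IRI vs IRI, 10 of 27 in IRI+Hemin vs IRI and 8 of 29 in Hemin vs Control, against 43.9%, 44.4% and 37.5%.

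The bases before the start of transcription are shown for Fzd1, Wnt11 and Wnt5b, because these members were lower after ischemia in several groups and because Wnt11 and Wnt5b hold the motifs searched. The windows are the 250 bases upstream of a RefSeq start on build GRCm38.p6, written 5′ to 3′ on the strand of the gene. Capitals mark the TCF/LEF motif CTTTGAT, the AP-1 motif TGANTCA and the hypoxia response core ACGTG, each searched on both strands, and neighbouring hits of ACGTG may overlap.
Fzd1, minus strand, chr5:4758217-4758466: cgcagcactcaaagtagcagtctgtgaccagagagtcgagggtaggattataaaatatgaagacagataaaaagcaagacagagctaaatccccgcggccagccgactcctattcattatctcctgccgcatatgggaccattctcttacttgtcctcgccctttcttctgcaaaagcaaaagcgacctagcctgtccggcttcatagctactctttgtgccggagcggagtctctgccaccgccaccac
Wnt11, plus strand, chr7:98834862-98835111: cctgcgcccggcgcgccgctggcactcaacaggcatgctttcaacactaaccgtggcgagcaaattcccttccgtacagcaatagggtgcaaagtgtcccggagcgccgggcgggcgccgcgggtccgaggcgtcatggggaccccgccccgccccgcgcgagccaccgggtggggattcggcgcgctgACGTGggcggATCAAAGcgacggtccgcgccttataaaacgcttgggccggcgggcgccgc
Wnt5b, minus strand, chr6:119544348-119544597: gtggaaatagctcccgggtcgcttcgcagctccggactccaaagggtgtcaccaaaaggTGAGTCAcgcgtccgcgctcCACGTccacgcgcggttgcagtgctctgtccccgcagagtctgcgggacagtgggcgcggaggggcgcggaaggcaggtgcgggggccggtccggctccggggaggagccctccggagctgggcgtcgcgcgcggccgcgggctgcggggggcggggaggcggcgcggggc
Wnt5b, another start, minus strand, chr6:119449387-119449636: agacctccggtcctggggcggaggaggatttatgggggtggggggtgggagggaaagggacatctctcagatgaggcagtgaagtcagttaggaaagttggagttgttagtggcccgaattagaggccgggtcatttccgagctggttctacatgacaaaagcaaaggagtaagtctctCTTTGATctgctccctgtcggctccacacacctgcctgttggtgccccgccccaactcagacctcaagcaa
RefSeq gives 1 window for Fzd1, 2 for Wnt11 and 3 for Wnt5b, and of the last 2 genes the windows with a motif are shown, since the remaining window of each held none. The Fzd1 window held none of these motifs either, and 1 of Wnt11 held ATCAAAG 51 bases before the start and ACGTG 61 bases before it. One Wnt5b window held the AP-1 motif and the hypoxia core, and another held CTTTGAT 71 bases before its start. Promoter windows were matched for 30 of the 45 members, 34 windows in all. The TCF/LEF motif was in 2 of the 34 windows and in 3.21% of the 32851 windows of all genes. The AP-1 motif was in 2 of them and in 6.75% of all, and the hypoxia core in 5 of them and in 16.6% of all. Besides the genes shown, Dvl2 held the AP-1 motif and the hypoxia core, and Wnt9a and Fzd9 the hypoxia core. Of these, Dvl2 was called lower in IPC+IRI vs Control and IRI+Hemin vs Hemin, Wnt9a was called higher after ischemia, and Fzd9 was not called. A match describes the letters of a window and shows no binding.

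Ischemia was followed by a mixed picture of the pathway, with a high ligand, Wnt10a, against lower levels of several receptors, inhibitors and other ligands. In IRI vs Control, 15 of 30 members tested were called, where 50.6% of all genes were called. Of these, 4 were higher and 11 lower, against 17% and 33.7% of all genes. By 2-fold or more, 1 member was higher and 5 were lower, and 20.2% of all genes were called at this size, 5.97% higher and 14.3% lower. Without normalization between arrays the calls were 1 higher and 9 lower. Over the members tested, log2 fold changes had a median of -0.25, and over all genes of -0.17. The members were called about as often as the genes at large. The arrays of IRI and Control did not overlap for 12 of the 30, and for 46.1% of all genes. For such a member the two-sided exact permutation test gives 0.0286, the smallest p that 4 against 4 arrays allow. In IPC+IRI vs Control, 20 of 31 members were called, 7 higher and 13 lower, where 55.8% of all genes were called, 23.1% higher and 32.6% lower. The excess of lower calls depended on the scaling, since without normalization between arrays 8 were higher and 6 lower. At 2-fold or more the count was 11 of 31, 3 higher and 8 lower, with 22% of all genes called, 7.96% higher and 14.1% lower. Kidneys with and without ischemia after hemin, compared as IRI+Hemin vs Hemin, had 16 of 36 members called, 5 higher and 11 lower, with 44.2% of all genes called, 16.4% higher and 27.8% lower. The split was 6 and 7 with quantile normalization, 2 and 8 without normalization and 5 and 4 with normexp background correction. Here 9 of 36 passed 2-fold in their measured means, 3 higher and 6 lower, with 14.3% of all genes called, 5.78% higher and 8.49% lower. With normexp background correction the members past 2-fold were 2 in IRI vs Control, 3 in IPC+IRI vs Control and 3 in IRI+Hemin vs Hemin, against 3.37%, 4.9% and 4.49% of all genes. This correction adds an offset of 50 intensity units, which outweighs the signal of dim genes.

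**Figure D1:**
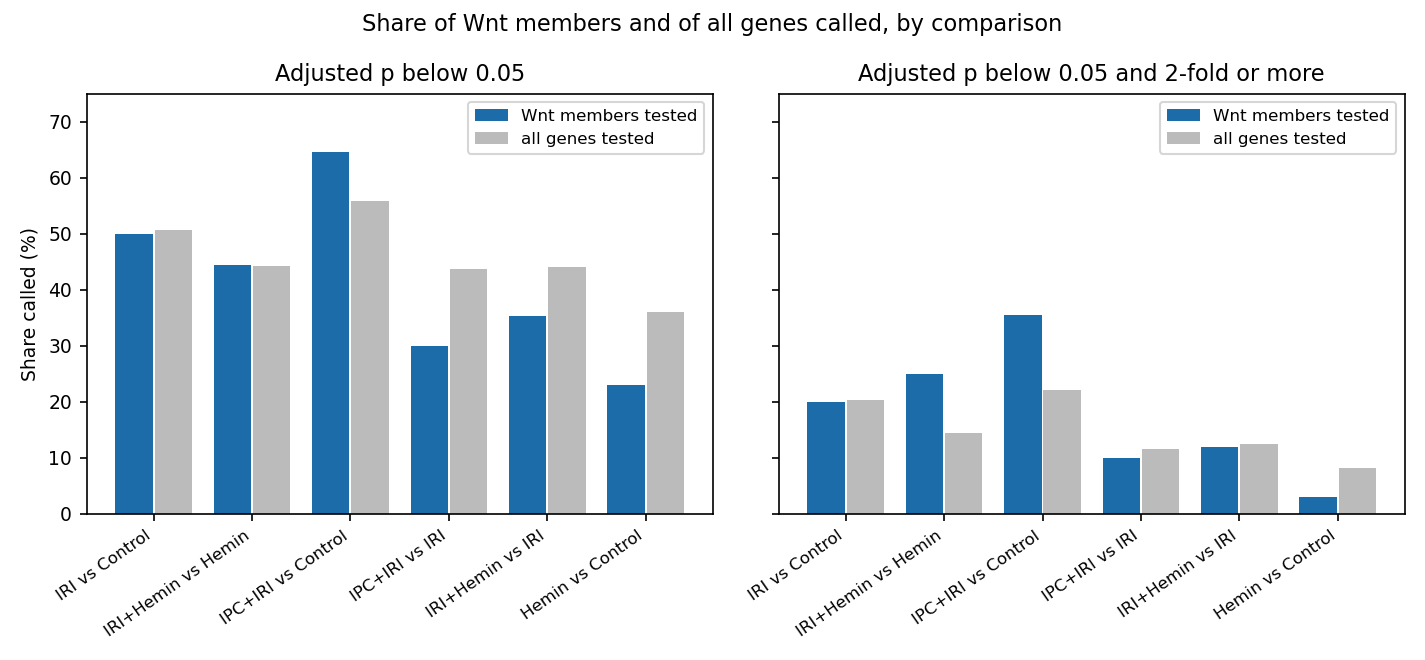
Share of the Wnt members tested (blue) and of all genes tested (grey) that were called, in percent, for each of 6 comparisons. Left, adjusted p below 0.05; right, the same with a change of 2-fold or more, where members reached 35.5% in IPC+IRI vs Control against 22% of all genes and 2.86% in Hemin vs Control against 8.16%.

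Among the ligands, Wnt10a, a canonical Wnt known from skin and tooth development, had the largest rise. Wnt10a was at -2.09, -2.66, -2.78 and -3.66 in the Control arrays and at -1.93, -2.18, -1.40 and -2.09 in Hemin. Wnt10a was at -0.54, 0.26, 0.27 and 0.02 in IRI, 0.73, 0.06, 0.15 and -0.31 in IRI+Hemin and 0.48, 0.86, 0.31 and -0.49 in IPC+IRI. All 12 arrays with ischemia lay above all 8 arrays without it. Wnt10a was higher by 6.96-fold (log2 fold change 2.80 ± 0.32 SE, adjusted p = 2.5e-06) in IRI vs Control, higher by 8.48-fold (log2 fold change 3.08 ± 0.32 SE, adjusted p = 8.99e-07) in IPC+IRI vs Control and higher by 4.16-fold (log2 fold change 2.06 ± 0.32 SE, adjusted p = 8.7e-05) in IRI+Hemin vs Hemin. The size of the ischemic rise with and without hemin differed by -0.74 ± 0.46 (SE), with an adjusted p of 0.366 for the interaction. Hemin alone was also called against Control, where Wnt10a was higher by 1.86-fold (log2 fold change 0.90 ± 0.32 SE, adjusted p = 0.0383), and here the arrays of both groups overlapped. This last call was lost without Control replicate 3 or 4 or Hemin replicate 1 or 3, with values of 0.61 to 0.91.

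Wnt11, which acts outside the beta-catenin branch in many settings and in the branching of the ureteric bud, was among the ligands that fell. Wnt11 read -1.48, -2.47, -2.56 and -2.37 in Control and -2.22, -2.14, -2.28 and -2.03 in Hemin. Wnt11 read -3.60, -3.74, -3.32 and -3.13 in IRI, -2.85, -2.88, -3.14 and -2.19 in IRI+Hemin and -3.24, -3.19, -2.47 and -3.44 in IPC+IRI. Every IRI array lay below every Control array, whereas 1 array each of IRI+Hemin and IPC+IRI reached into the range of Control. Wnt11 was lower by 2.34-fold (log2 fold change -1.23 ± 0.25 SE, adjusted p = 0.00056) in IRI vs Control and lower by 1.82-fold (log2 fold change -0.87 ± 0.25 SE, adjusted p = 0.00679) in IPC+IRI vs Control. With normexp background correction the first value was -0.21 and no longer called. Wnt11 was higher by 1.6-fold (log2 fold change 0.68 ± 0.25 SE, adjusted p = 0.0338) in IRI+Hemin vs IRI, a call that was lost without IRI replicate 1 or 2 or IRI+Hemin replicate 4. It was also lost with quantile normalization, and with normexp correction the difference changed sign.

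Wnt6, a ligand of epithelia, was measured at -2.35, -1.82, -2.48 and -2.58 in Control and at -3.36, -3.07, -3.28 and -2.89 in Hemin. Wnt6 was measured at -3.68, -3.08, -3.43 and -3.62 in IRI, -3.32, -3.33, -3.66 and -3.29 in IRI+Hemin and -3.37, -3.42, -2.99 and -3.66 in IPC+IRI. Control stood above all the other groups without overlap, hemin alone included. Wnt6 was lower by 2.21-fold (log2 fold change -1.15 ± 0.18 SE, adjusted p = 5.56e-05) in IRI vs Control, lower by 2.07-fold (log2 fold change -1.05 ± 0.18 SE, adjusted p = 0.000106) in IPC+IRI vs Control and lower by 1.8-fold (log2 fold change -0.85 ± 0.18 SE, adjusted p = 0.00187) in Hemin vs Control. The difference that ischemia made was -1.15 without hemin and -0.25 after hemin. This made Wnt6 the 1 member of 36 called in the interaction of hemin and ischemia, at 0.90 ± 0.26 (SE) with an adjusted p of 0.0378, where 7.77% of all genes were called. The interaction missed the threshold without any 1 of 11 of the 16 arrays, with values of 0.74 to 0.93. The values rest on the brighter of its 2 probes, since the other was well above background on 4 of 20 arrays, and with normexp correction IRI vs Control gave -0.16 and was not called. As a mean of log2 values over both probes, IPC+IRI vs Control was -0.26 and Hemin vs Control -0.05, neither called.

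Wnt9a and Wnt9b, which share a branch of the ligand family, were called in opposite directions in IPC+IRI vs Control and in IRI+Hemin vs Hemin. Wnt9a was found at -4.37, -4.07, -4.11 and -3.94 in Control and at -3.53, -3.63, -3.55 and -3.71 in Hemin. Wnt9a was found at -3.53, -4.00, -3.38 and -3.27 in IRI, -2.26, -2.47, -2.42 and -2.77 in IRI+Hemin and -3.63, -3.12, -3.17 and -3.01 in IPC+IRI. The 4 IRI+Hemin arrays were the highest of all 20. Wnt9a was higher by 1.49-fold (log2 fold change 0.58 ± 0.16 SE, adjusted p = 0.00642) in IRI vs Control, higher by 1.86-fold (log2 fold change 0.90 ± 0.16 SE, adjusted p = 0.000171) in IPC+IRI vs Control and higher by 2.18-fold (log2 fold change 1.12 ± 0.16 SE, adjusted p = 3.89e-05) in IRI+Hemin vs Hemin. The difference between IRI+Hemin and IRI was higher by 2.09-fold (log2 fold change 1.06 ± 0.16 SE, adjusted p = 7.72e-05), but -0.01 with normexp correction.

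Wnt9b, the ligand that induces nephrons from the ureteric bud, lay at -2.33, -1.71, -2.29 and -1.98 in Control and -1.54, -1.89, -0.90 and -1.80 in Hemin. Wnt9b lay at -2.75, -2.63, -2.61 and -2.27 in IRI, -2.91, -3.07, -2.57 and -2.10 in IRI+Hemin and -2.86, -2.91, -2.59 and -4.54 in IPC+IRI. The Hemin arrays did not overlap those of IRI+Hemin, and IPC+IRI replicate 4 stood far below the rest of its group. Wnt9b was lower by 2.21-fold (log2 fold change -1.15 ± 0.34 SE, adjusted p = 0.00777) in IPC+IRI vs Control and -0.71 without that array. Wnt9b was also lower by 2.19-fold (log2 fold change -1.13 ± 0.34 SE, adjusted p = 0.0117) in IRI+Hemin vs Hemin.

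Wnt1, the founding member of the family, was called in all 6 comparisons and lower in the first group of each. Wnt1 stood at -2.86, -2.99, -2.97 and -3.09 in Control and -3.43, -3.33, -3.61 and -3.66 in Hemin. Wnt1 stood at -3.71, -3.53, -3.54 and -3.74 in IRI, -4.23, -4.23, -4.56 and -3.78 in IRI+Hemin and -4.05, -4.33, -3.96 and -3.97 in IPC+IRI. Control was highest, with no overlap with any other group. Wnt1 was lower by 1.57-fold (log2 fold change -0.65 ± 0.14 SE, adjusted p = 0.000828) in IRI vs Control, lower by 2.14-fold (log2 fold change -1.10 ± 0.14 SE, adjusted p = 5.52e-06) in IPC+IRI vs Control and lower by 1.45-fold (log2 fold change -0.53 ± 0.14 SE, adjusted p = 0.0067) in Hemin vs Control. With normexp correction, IRI vs Control turned to 0.03 and IPC+IRI vs Control gave -0.47, neither called, and without normalization between arrays Hemin vs Control turned to 0.03.

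Wnt5b, another ligand that often signals without beta-catenin, was at -1.46, -2.0, -1.52 and -2.25 in Control and -1.52, -1.33, -1.66 and -1.23 in Hemin. Wnt5b was at -2.89, -2.51, -2.68 and -2.37 in IRI, -2.75, -2.67, -2.94 and -1.72 in IRI+Hemin and -2.53, -2.91, -2.36 and -2.54 in IPC+IRI. Apart from 1 IRI+Hemin array, all arrays with ischemia lay below all arrays without it. Wnt5b was lower by 1.75-fold (log2 fold change -0.81 ± 0.23 SE, adjusted p = 0.00764) in IRI vs Control and lower by 2.12-fold (log2 fold change -1.09 ± 0.23 SE, adjusted p = 0.00117) in IRI+Hemin vs Hemin, and these were -0.13 and -0.49 and not called with normexp correction.

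Wnt4, which drives the change of kidney mesenchyme to epithelium, spread more widely. Wnt4 lay at -4.11, -3.68, -3.91 and -4.46 in Control and -3.36, -3.85, -1.59 and -3.85 in Hemin. Wnt4 lay at -3.55, -3.89, -4.32 and -2.14 in IRI, -2.86, -2.70, -3.31 and -3.00 in IRI+Hemin and -3.17, -1.23, -2.75 and -3.18 in IPC+IRI. IPC+IRI did not overlap Control, and IRI, Hemin and IPC+IRI each held 1 array well above its companions. Wnt4 was higher by 2.74-fold (log2 fold change 1.46 ± 0.51 SE, adjusted p = 0.0221) in IPC+IRI vs Control, and the call was lost without IPC+IRI replicate 2, at 1.01, without Control replicate 4, at 1.32, or with normexp correction, at 0.30.

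Wnt2 was near the detection limit of the arrays. Wnt2 gave -4.87, -3.23, -5.14 and -3.71 in Control, of which 2 arrays were well above background, and -2.81, -3.75, -3.17 and -3.03 in Hemin, where all were. Wnt2 gave -5.35, -6.26, -5.33 and -6.22 in IRI, -3.82, -4.35, -4.83 and -3.83 in IRI+Hemin and -5.54, -3.65, -3.86 and -6.10 in IPC+IRI. None of the IRI arrays, all of IRI+Hemin and 2 of IPC+IRI were well above background. Set against the lowest signal that passed as well above background on each IRI array, Wnt2 was at least 1.41-fold higher in IRI+Hemin than in IRI, with an adjusted p of 0.0172 for the measured means. Wnt2 entered this test through IRI+Hemin alone, so that the p sets signal against readings at background, and with normexp correction the difference turned to -0.38. Of the remaining ligands, Wnt7b, found in the collecting duct, was higher by 1.76-fold (log2 fold change 0.82 ± 0.28 SE, adjusted p = 0.0219) in IRI vs Control and higher by 1.85-fold (log2 fold change 0.89 ± 0.28 SE, adjusted p = 0.012) in IPC+IRI vs Control. The first of these calls was lost without IRI replicate 1 or 4 or Control replicate 3 or 4. Wnt5a was well above background on 3 IRI+Hemin arrays and on none of IRI, so no fold is given. The arrays overlapped, with means of -4.75 and -5.49, and the call at an adjusted p of 0.0421 again set signal against background readings, was lost without any 1 of 5 of the 8 arrays, and turned to -0.49 with normexp correction. Wnt8b and Wnt16 passed no test.

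**Figure D2:**
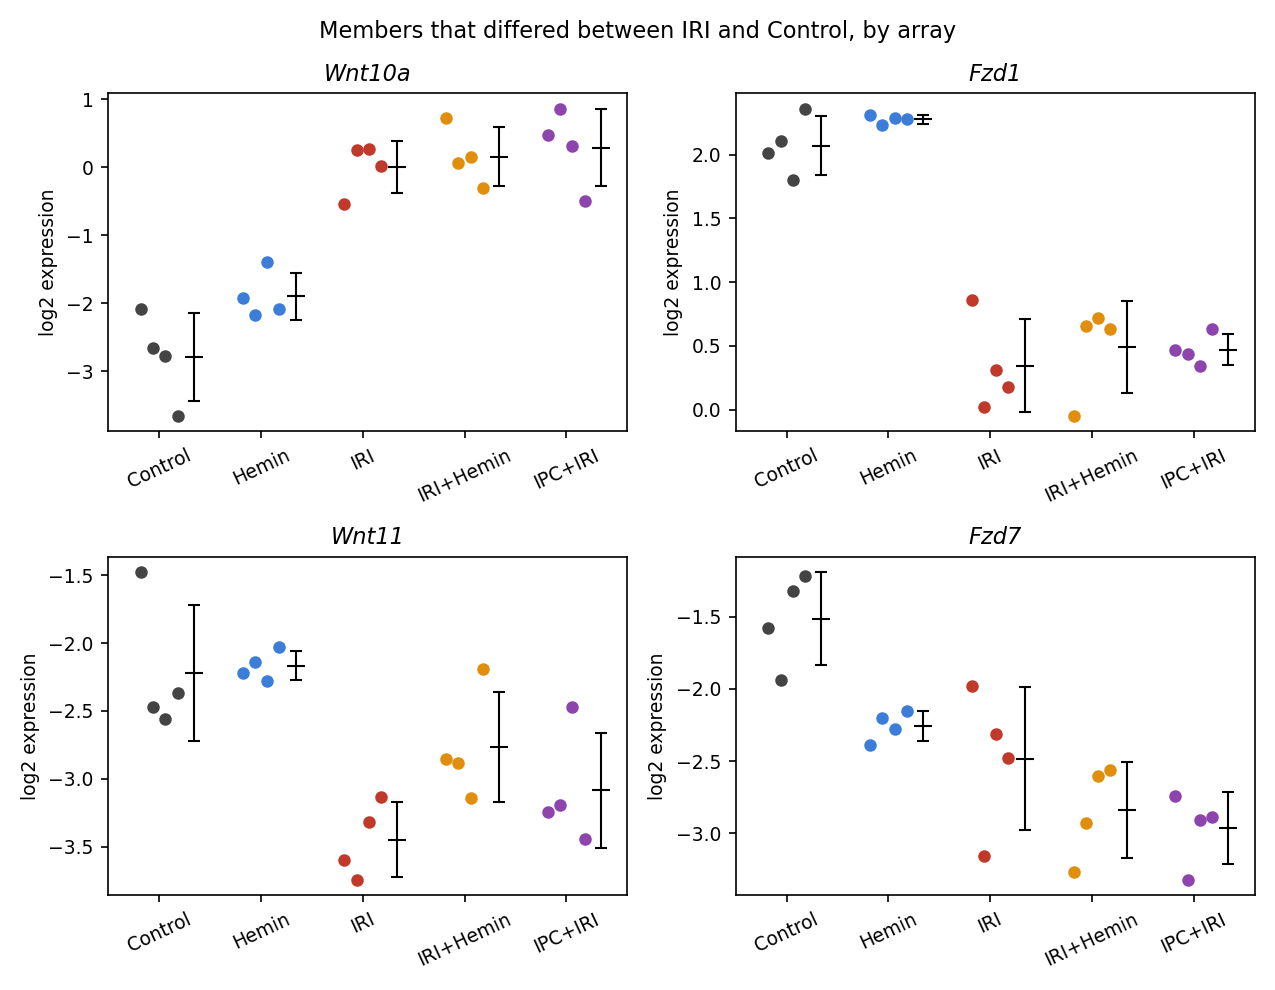
Log2 expression of Wnt10a, Fzd1, Wnt11 and Fzd7 on each of the 20 arrays (points; y axis, log2 of the signal over the array's 75th percentile), with the mean and SD of each group of 4 as a black bar. Wnt10a was -0.54 or higher on the 12 arrays with ischemia and -1.40 or lower on the 8 without, and Fzd1 was 0.86 or lower and 1.80 or higher.

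Among the receptors, Fzd1, a frizzled that transmits the canonical signal, showed the clearest change. Fzd1 measured 2.01, 2.11, 1.80 and 2.36 in Control and 2.31, 2.23, 2.29 and 2.28 in Hemin. Fzd1 measured 0.86, 0.02, 0.31 and 0.18 in IRI, -0.05, 0.66, 0.72 and 0.63 in IRI+Hemin and 0.47, 0.44, 0.34 and 0.63 in IPC+IRI. Again all 12 arrays with ischemia were separate from the 8 without, here below them. Fzd1 was lower by 3.31-fold (log2 fold change -1.73 ± 0.18 SE, adjusted p = 8.09e-07) in IRI vs Control, lower by 3.03-fold (log2 fold change -1.60 ± 0.18 SE, adjusted p = 1.85e-06) in IPC+IRI vs Control and lower by 3.44-fold (log2 fold change -1.78 ± 0.18 SE, adjusted p = 1.1e-06) in IRI+Hemin vs Hemin. The interaction was -0.06 ± 0.25 (SE) with an adjusted p of 0.929. Fzd1 and Wnt10a kept their calls in these 3 comparisons under every setting run. Preconditioning and hemin made no detectable difference to either gene after ischemia, with Fzd1 at 0.13 ± 0.18 (SE, adjusted p = 0.583) in IPC+IRI vs IRI and 0.15 ± 0.18 (SE, adjusted p = 0.529) in IRI+Hemin vs IRI, and Wnt10a at 0.29 ± 0.32 (SE, adjusted p = 0.493) and 0.16 ± 0.32 (SE, adjusted p = 0.726).

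Fzd7, another receptor of canonical and other branches, lay at -1.58, -1.94, -1.32 and -1.22 in Control and -2.39, -2.20, -2.28 and -2.15 in Hemin. Fzd7 lay at -1.98, -3.16, -2.31 and -2.48 in IRI, -3.27, -2.93, -2.60 and -2.56 in IRI+Hemin and -2.74, -3.32, -2.91 and -2.89 in IPC+IRI. Control was above every other group without overlap, Hemin lay between, and the arrays with ischemia were lowest save for 2 of IRI. Fzd7 was lower by 1.95-fold (log2 fold change -0.97 ± 0.22 SE, adjusted p = 0.00158) in IRI vs Control, lower by 2.73-fold (log2 fold change -1.45 ± 0.22 SE, adjusted p = 3.75e-05) in IPC+IRI vs Control and lower by 1.67-fold (log2 fold change -0.74 ± 0.22 SE, adjusted p = 0.0156) in Hemin vs Control. The last call was lost without Control replicate 4, at -0.64, and the first with normexp correction, at -0.28. Its 2 probes disagreed in IRI+Hemin vs IRI, at 1.34 for the dim probe and -0.60 for the bright one.

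Fzd2 was held at -2.01, -2.35, -2.27 and -2.21 in Control and -2.50, -2.26, -2.22 and -2.39 in Hemin. Fzd2 was held at -2.70, -2.62, -2.31 and -2.46 in IRI, -2.10, -2.42, -2.52 and -2.07 in IRI+Hemin and -3.21, -3.39, -3.17 and -3.33 in IPC+IRI. The IPC+IRI arrays were the lowest of all 20 without overlap. Fzd2 was lower by 2.09-fold (log2 fold change -1.06 ± 0.12 SE, adjusted p = 2.46e-06) in IPC+IRI vs Control and lower by 1.68-fold (log2 fold change -0.75 ± 0.12 SE, adjusted p = 0.000152) in IPC+IRI vs IRI, and the first was -0.67 and not called in the deposited log2 values. Its call in IRI vs Control, at -0.31, was lost when any 1 of 5 of the 8 arrays was left out. This call was also lost with quantile normalization, and with normexp correction the difference changed sign.

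Fzd10 was dim. Fzd10 was seen at -4.49, -3.70, -4.57 and -4.99 in Control and -4.30, -4.68, -4.29 and -4.60 in Hemin. Fzd10 was seen at -6.65, -5.95, -5.52 and -5.08 in IRI, -5.61, -5.58, -5.54 and -5.07 in IRI+Hemin and -5.86, -5.62, -5.55 and -4.81 in IPC+IRI. All arrays of Control, Hemin and IRI+Hemin, 1 of IRI and 2 of IPC+IRI were well above background. Fzd10 was tested against Control through the Control arrays, as 3 of the 4 IRI readings and 2 of IPC+IRI were not well above background. The measured log2 differences were -1.36 ± 0.30 (SE, adjusted p = 0.00121) in IRI vs Control and -1.02 ± 0.30 (SE, adjusted p = 0.00833) in IPC+IRI vs Control. With normexp correction these values were 0.12 and -0.35, and in the deposited log2 values -0.77 and -0.49, and none of these was called. Fzd4 and Fzd6 were called lower in IPC+IRI vs IRI, at -0.55 and -0.63, and Fzd6 also in IRI+Hemin vs IRI, at -0.90. Fzd8 was called higher in Hemin vs Control, at 0.51, a call that was lost without any 1 of 7 of the 8 arrays. Fzd9 passed no test, and Lrp6 was called in IRI+Hemin vs IRI, at -0.68, from 2 probes at -1.52 and -0.16.

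Lrp5 and Dkk2, a co-receptor and a secreted protein that binds it, were among the members that separated the pretreated from the untreated ischemic kidneys. In IPC+IRI vs IRI, 9 of 30 members were called, 4 higher and 5 lower, where 43.7% of all genes were called, 26% higher and 17.7% lower. Without normalization between arrays 4 were higher and 0 lower. By 2-fold or more, 3 members were called, Lrp5, Dkk2 and Fzd5, all higher, with 11.6% of all genes called, 7.16% higher and 4.4% lower. Hemin before ischemia, in IRI+Hemin vs IRI, gave calls for 12 of 34 members, 9 higher and 3 lower, where 44% of all genes were called, 26.1% higher and 18% lower. The split became 10 and 0 without normalization between arrays, 7 and 4 with quantile normalization, and 4 and 5 with normexp background correction. Here Lrp5, Dkk2 and Wnt9a passed 2-fold, and so did Wnt2 in its measured means but not in its bound, all higher, with 12.5% of all genes called, 7.44% higher and 5.02% lower. With normexp correction 0 members passed 2-fold in either comparison, against 2.5% of all genes in IPC+IRI vs IRI and 3.03% in IRI+Hemin vs IRI, and without normalization 8 did in the latter, against 18.1%. Both comparisons share the IRI arrays, and both cross scan days.

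Lrp5 recorded -1.41, -0.06, -1.46 and -0.72 in Control and 0.37, 0.52, 0.68 and 0.76 in Hemin. Lrp5 recorded -1.67, -2.06, -2.02 and -0.54 in IRI, 0.11, 0.35, -0.06 and 0.21 in IRI+Hemin and 0.16, 0.11, 0.12 and 0.12 in IPC+IRI. Control and IRI were low and widely spread, and the other groups high and tight, a division that follows the scan day of Control and IRI and equally the absence of pretreatment. Lrp5 was higher by 3.25-fold (log2 fold change 1.70 ± 0.30 SE, adjusted p = 0.000252) in IPC+IRI vs IRI and higher by 3.31-fold (log2 fold change 1.73 ± 0.30 SE, adjusted p = 0.000219) in IRI+Hemin vs IRI. Without any ischemia, Lrp5 was higher by 2.82-fold (log2 fold change 1.5 ± 0.30 SE, adjusted p = 0.00115) in Hemin vs Control. Within the first scan day, in IRI vs Control, it was -0.66 ± 0.30 (SE, adjusted p = 0.0731), and within the last, in IPC+IRI vs Hemin, it was -0.45 ± 0.30 (SE), neither called. The summed log2 level of the 2 ribosomal RNA markers was divided likewise in its means, at 5.60 in Control, 4.94 in IRI and 7.51 to 7.67 in the other groups. It ranged from 4.56 to 7.75 in Control, 3.17 to 6.11 in IRI and 7.24 to 8.06 in the others, so Control overlapped these. Scan day and pretreatment cannot be told apart in the Lrp5 result.

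Dkk2, which can block or in some settings aid the Lrp co-receptors, was at -0.75, 0.20, -0.74 and -0.36 in Control and 0.47, 0.39, 0.14 and -0.51 in Hemin. Dkk2 was at -1.64, -1.49, -1.32 and -1.08 in IRI, -0.29, -0.25, -0.24 and -0.01 in IRI+Hemin and -0.06, 0.07, 0.23 and -0.50 in IPC+IRI. The IRI arrays were the lowest of all 20, below those of every other group. Dkk2 was higher by 2.5-fold (log2 fold change 1.32 ± 0.23 SE, adjusted p = 0.000234) in IPC+IRI vs IRI, higher by 2.27-fold (log2 fold change 1.18 ± 0.23 SE, adjusted p = 0.000552) in IRI+Hemin vs IRI and, within a scan day, lower by 1.96-fold (log2 fold change -0.97 ± 0.23 SE, adjusted p = 0.00192) in IRI vs Control. All 3 calls held under every setting run. Ischemia after hemin left Dkk2 at -0.32 ± 0.23 (SE, adjusted p = 0.27), and the interaction, at 0.65 ± 0.32 (SE), had an adjusted p of 0.246.

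Fzd5, a receptor for Wnt5a and other ligands, was read at -3.07, -3.21, -3.24 and -3.37 in Control and -2.97, -2.89, -3.25 and -3.14 in Hemin. Fzd5 was read at -3.66, -3.26, -3.43 and -3.32 in IRI, -2.64, -2.54, -2.48 and -2.50 in IRI+Hemin and -2.37, -2.38, -1.96 and -2.91 in IPC+IRI. Both pretreated groups lay above IRI and Control without overlap. Fzd5 was higher by 2.02-fold (log2 fold change 1.02 ± 0.15 SE, adjusted p = 8.08e-05) in IPC+IRI vs IRI and higher by 1.84-fold (log2 fold change 0.88 ± 0.15 SE, adjusted p = 0.000257) in IRI+Hemin vs IRI. Its 2 probes did not share this, since 1 was at 1.52 ± 0.19 (SE, adjusted p = 1.17e-05) and the other at 0.02 ± 0.19 (SE, adjusted p = 0.933) in IPC+IRI vs IRI. Normexp correction gave -0.07 and -0.14 for the gene.

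**Figure D3:**
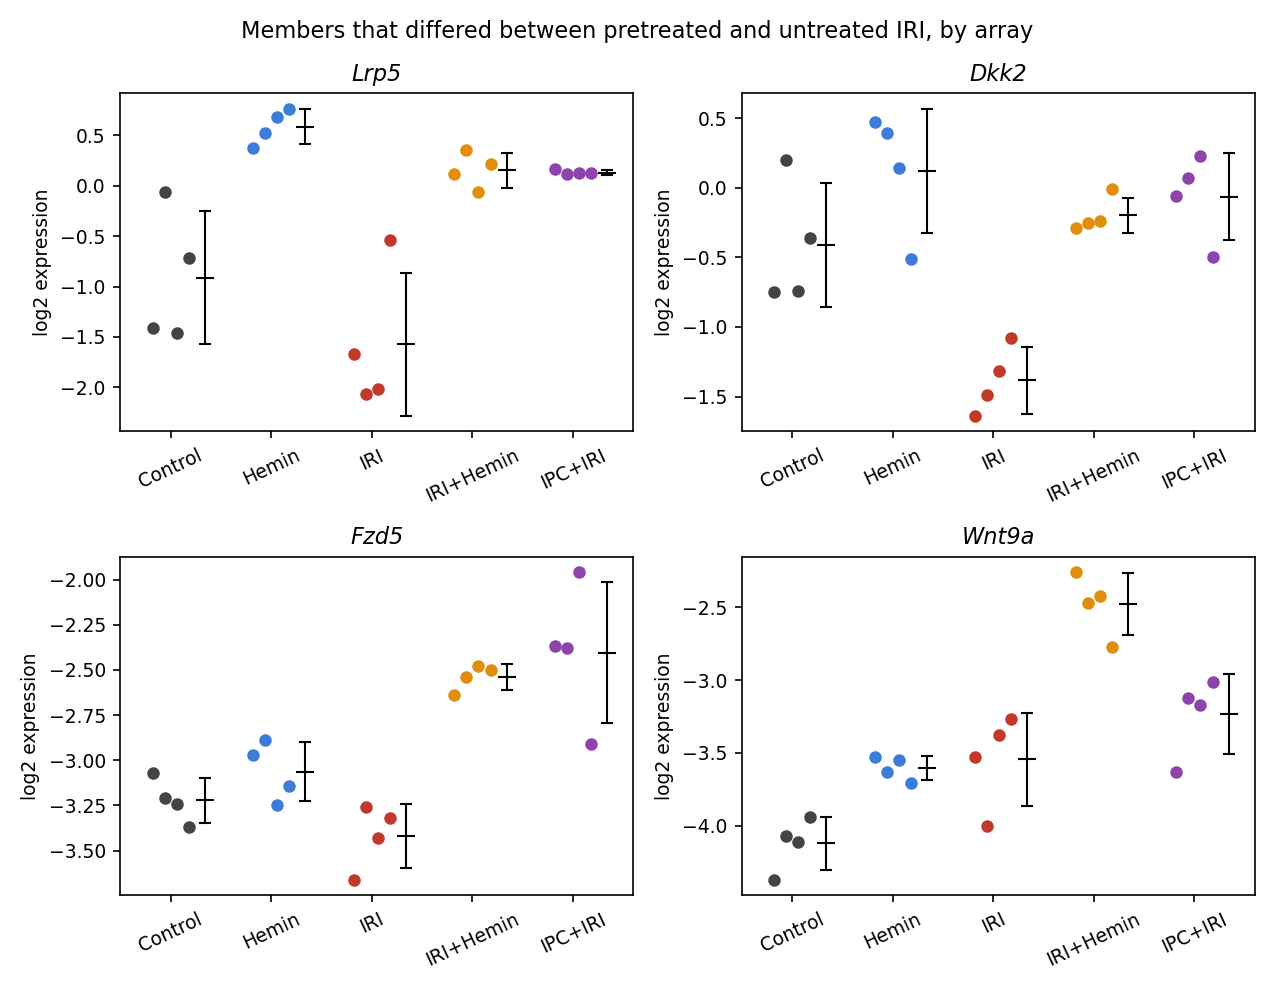
Log2 expression of Lrp5, Dkk2, Fzd5 and Wnt9a on each array (points; y axis, log2 of the signal over the array's 75th percentile), with group mean and SD as a black bar. IRI holds the 4 lowest arrays of Dkk2, -1.08 and below, while Lrp5 is low in Control and IRI, which share a scan day and had no pretreatment, and 0.15, 0.13 and 0.58 on average in IRI+Hemin, IPC+IRI and Hemin.

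Among the secreted inhibitors, Sfrp1, which binds and sequesters Wnt ligands, fell with ischemia. Sfrp1 ran at 0.51, 1.09, 1.06 and 0.98 in Control and 0.97, 1.23, 0.71 and 0.56 in Hemin. Sfrp1 ran at -0.47, 0.08, -0.08 and -0.12 in IRI, -0.46, -0.43, -0.73 and 0.25 in IRI+Hemin and 1.31, 0.42, 0.97 and 0.46 in IPC+IRI. IRI and IRI+Hemin lay below both groups without surgery, and IPC+IRI overlapped those. Sfrp1 was lower by 2.08-fold (log2 fold change -1.06 ± 0.23 SE, adjusted p = 0.000921) in IRI vs Control and lower by 2.31-fold (log2 fold change -1.21 ± 0.23 SE, adjusted p = 0.000419) in IRI+Hemin vs Hemin, and both probes were called lower there. In IPC+IRI vs IRI the gene was higher by 1.92-fold (log2 fold change 0.94 ± 0.23 SE, adjusted p = 0.00312), but its probes parted, at 1.21 ± 0.24 (SE, adjusted p = 0.000652) and -0.24 ± 0.28 (SE, adjusted p = 0.511). They parted again in IRI+Hemin vs IRI, at 0.13 ± 0.24 and -1.80 ± 0.28 (SE), of which the second had an adjusted p of 8.69e-05. The second probe was also called lower in IPC+IRI vs Control, at -1.05 ± 0.28 (SE, adjusted p = 0.00463), and in Hemin vs Control, at -0.83 ± 0.28 (SE, adjusted p = 0.03). In these the first probe was at 0.11 and 0.17 and not called. Of 6 fibroblast and pericyte markers, 1 was called lower in IRI vs Control and 2 in IRI+Hemin vs Hemin, none higher, and the log2 of their summed level was 2.96 to 3.64 in Control, 3.40 to 3.82 in Hemin, 2.61 to 3.45 in IRI, 3.33 to 4.24 in IRI+Hemin and 2.38 to 4.4 in IPC+IRI. The collagen chain Col1a1 was the marker called lower in IRI vs Control and, with Col3a1, in IRI+Hemin vs Hemin, whereas Pdgfra, Pdgfrb, Dcn and Col1a2 were called in neither, and the first 3 of these were at 0.54, 0.34 and 0.97 in IRI+Hemin vs Hemin. Of 5 proximal tubule markers, 2 were called lower in IRI vs Control and 4 in IRI+Hemin vs Hemin, and of 5 endothelial markers 1 was higher and 2 lower in IRI vs Control and 0 were called in IRI+Hemin vs Hemin. Of all genes, 17% were called higher and 33.7% lower in IRI vs Control, and 16.4% and 27.8% in IRI+Hemin vs Hemin. In IPC+IRI vs IRI, 2 of the 6 fibroblast and pericyte markers were called higher and 0 lower, against 26% and 17.7% of all genes. The part of these cell types in the Sfrp1 result was not tested.

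Sfrp2, a relative of Sfrp1, was placed at -0.74, -0.42, -0.20 and 0.42 in Control and -0.80, -0.51, -1.56 and -0.86 in Hemin. Sfrp2 was placed at -1.13, -0.91, -0.87 and -1.59 in IRI, -1.09, -1.95, -1.64 and -2.01 in IRI+Hemin and -1.25, -1.49, -1.82 and -2.28 in IPC+IRI. Control lay above all groups with ischemia, and Hemin overlapped them. Sfrp2 was lower by 2.78-fold (log2 fold change -1.48 ± 0.29 SE, adjusted p = 0.000319) in IPC+IRI vs Control and lower by 1.86-fold (log2 fold change -0.89 ± 0.29 SE, adjusted p = 0.015) in IRI vs Control, and the second call was lost without Control replicate 4, at -0.67, or IRI replicate 4, at -0.74.

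Dkk3, a divergent member of the Dkk family, came to -1.34, -2.05, -1.63 and -1.83 in Control and -1.57, -1.86, -1.27 and -1.82 in Hemin. Dkk3 came to -1.23, -1.96, -1.60 and -1.46 in IRI, -1.0, -0.08, -0.60 and -0.68 in IRI+Hemin and -2.25, -0.80, -0.71 and -1.44 in IPC+IRI. The IRI+Hemin arrays were above those of Control, IRI and Hemin. Dkk3 was higher by 2.05-fold (log2 fold change 1.04 ± 0.28 SE, adjusted p = 0.00705) in IRI+Hemin vs Hemin and higher by 1.96-fold (log2 fold change 0.97 ± 0.28 SE, adjusted p = 0.0106) in IRI+Hemin vs IRI. The first call was lost without normalization between arrays, at 0.96. Sfrp5 was called lower in both comparisons of IPC+IRI, at -0.70 against IRI and -0.58 against Control, with calls that were lost when 1 of several arrays was left out, and Sfrp4 passed no test.

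**Figure D4:**
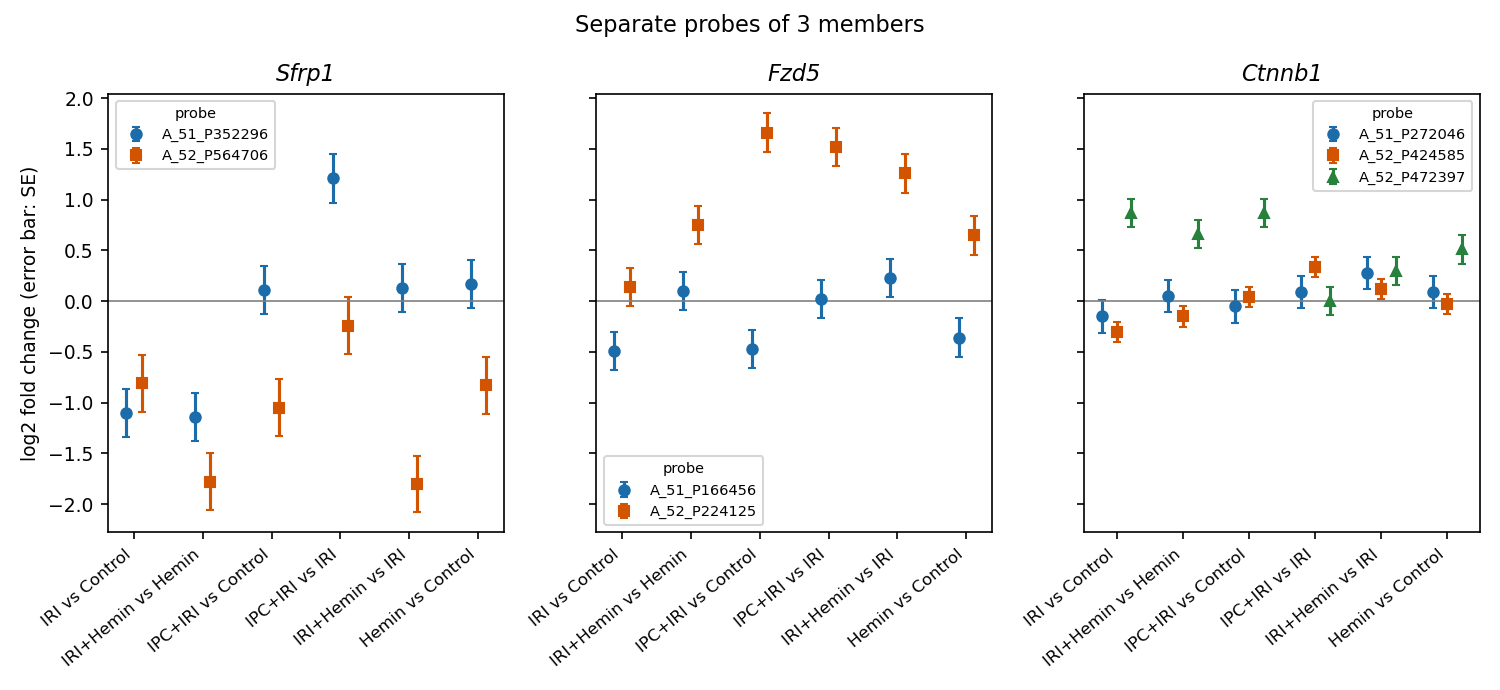
Log2 fold change of the separate probes of Sfrp1, Fzd5 and Ctnnb1 in 6 comparisons (y axis, log2 fold change of the first group minus the second; error bars, SE; a colour and symbol for each probe). The 2 probes of Fzd5 are at 1.52 and 0.02 in IPC+IRI vs IRI, those of Sfrp1 at 1.21 and -0.24, and 1 probe of Ctnnb1 is at 0.87 in IRI vs Control where the others are at -0.15 and -0.30.

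Inside the cell, the transcript of beta-catenin itself passed no test as the mean of its probes. Ctnnb1 read 2.93, 2.99, 2.98 and 3.21 in Control and 3.09, 3.08, 3.11 and 3.02 in Hemin. Ctnnb1 read 2.88, 2.60, 2.85 and 3.21 in IRI, 3.05, 3.05, 3.03 and 3.21 in IRI+Hemin and 3.09, 3.16, 3.01 and 3.11 in IPC+IRI. All groups overlapped, and no comparison was called, with -0.14 ± 0.11 (SE, adjusted p = 0.283) in IRI vs Control and 0.21 ± 0.11 (SE, adjusted p = 0.129) in IPC+IRI vs IRI. Without IRI replicate 4 it was called in IRI vs Control, at -0.25, in IPC+IRI vs IRI, at 0.32, and in IRI+Hemin vs IRI, at 0.31. As a mean of log2 values over probes it was called in IPC+IRI vs Control, at 0.29, and turned to 0.14 in IRI vs Control. By its brightest probe it was called in IRI vs Control, at -0.30, and in IPC+IRI vs IRI, at 0.34, and with normexp correction in IRI+Hemin vs IRI, at 0.41. Of its 3 probes, the 1 annotated to a separate cDNA was called higher with and without ischemia, at 0.87 ± 0.14 (SE, adjusted p = 5.06e-05) in IRI vs Control, 0.66 ± 0.14 (SE, adjusted p = 0.00082) in IRI+Hemin vs Hemin and 0.51 ± 0.14 (SE, adjusted p = 0.00787) in Hemin vs Control. Another was at -0.30 ± 0.10 (SE, adjusted p = 0.0224) in IRI vs Control. The transcript level of Ctnnb1 says nothing of the stability of the protein, which was not measured.

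Axin2, a negative regulator that is itself a widely used target of the canonical signal, was at or near background. Axin2 showed -4.55, -5.10, -5.24 and -5.34 in Control and -3.69, -5.07, -2.60 and -3.89 in Hemin. Axin2 showed -6.06, -6.67, -6.54 and -7.27 in IRI, -6.92, -5.54, -5.61 and -6.93 in IRI+Hemin and -6.56, -4.08, -6.28 and -6.04 in IPC+IRI. It was well above background on 3 Hemin arrays and 1 of IPC+IRI, and on none of Control, IRI and IRI+Hemin. Against the background bound, Axin2 was at least 2.74-fold lower in IRI+Hemin than in Hemin, with an adjusted p of 0.00137 for the measured means. It was tested there through Hemin alone, the IRI+Hemin readings being at background, and normexp correction gave -0.35 and no call. In Hemin vs Control the arrays overlapped and Axin2 was not called, with an adjusted p of 0.0742. The value turned to -0.12 with normexp correction, and Axin2 was called without normalization, at 1.81, and without Hemin replicate 2, at 1.66.

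Axin1, the scaffold of the destruction complex, was higher by 1.38-fold (log2 fold change 0.47 ± 0.17 SE, adjusted p = 0.0255) in IRI vs Control, higher by 1.77-fold (log2 fold change 0.82 ± 0.17 SE, adjusted p = 0.000436) in IPC+IRI vs Control and higher by 1.64-fold (log2 fold change 0.71 ± 0.17 SE, adjusted p = 0.00338) in Hemin vs Control. The first call was lost without Control replicate 1 or 4 or IRI replicate 4, with normexp correction, without normalization, with scaling over probes well above background, in the deposited log2 values and in the fit of the compared arrays alone. Dvl2, which relays the receptor signal, stood at -1.94, -2.58, -1.40 and -1.92 in Control and -2.23, -2.06, -1.95 and -1.78 in Hemin. Dvl2 stood at -2.10, -3.11, -2.43 and -2.12 in IRI, -3.67, -3.02, -2.78 and -2.69 in IRI+Hemin and -2.82, -2.78, -3.19 and -2.50 in IPC+IRI. The Hemin arrays lay above those of IRI+Hemin and IPC+IRI, and Control overlapped IRI and IPC+IRI. Dvl2 was lower by 2.05-fold (log2 fold change -1.04 ± 0.26 SE, adjusted p = 0.00421) in IRI+Hemin vs Hemin and lower by 1.82-fold (log2 fold change -0.86 ± 0.26 SE, adjusted p = 0.00969) in IPC+IRI vs Control, and the first was -0.41 and not called with normexp correction. Dvl3 was called lower in the same comparisons, at -0.54 and -0.60. Dvl1 went the other way, at 0.33 in IRI+Hemin vs Hemin and 0.44 in IRI+Hemin vs IRI.

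**Figure D5:**
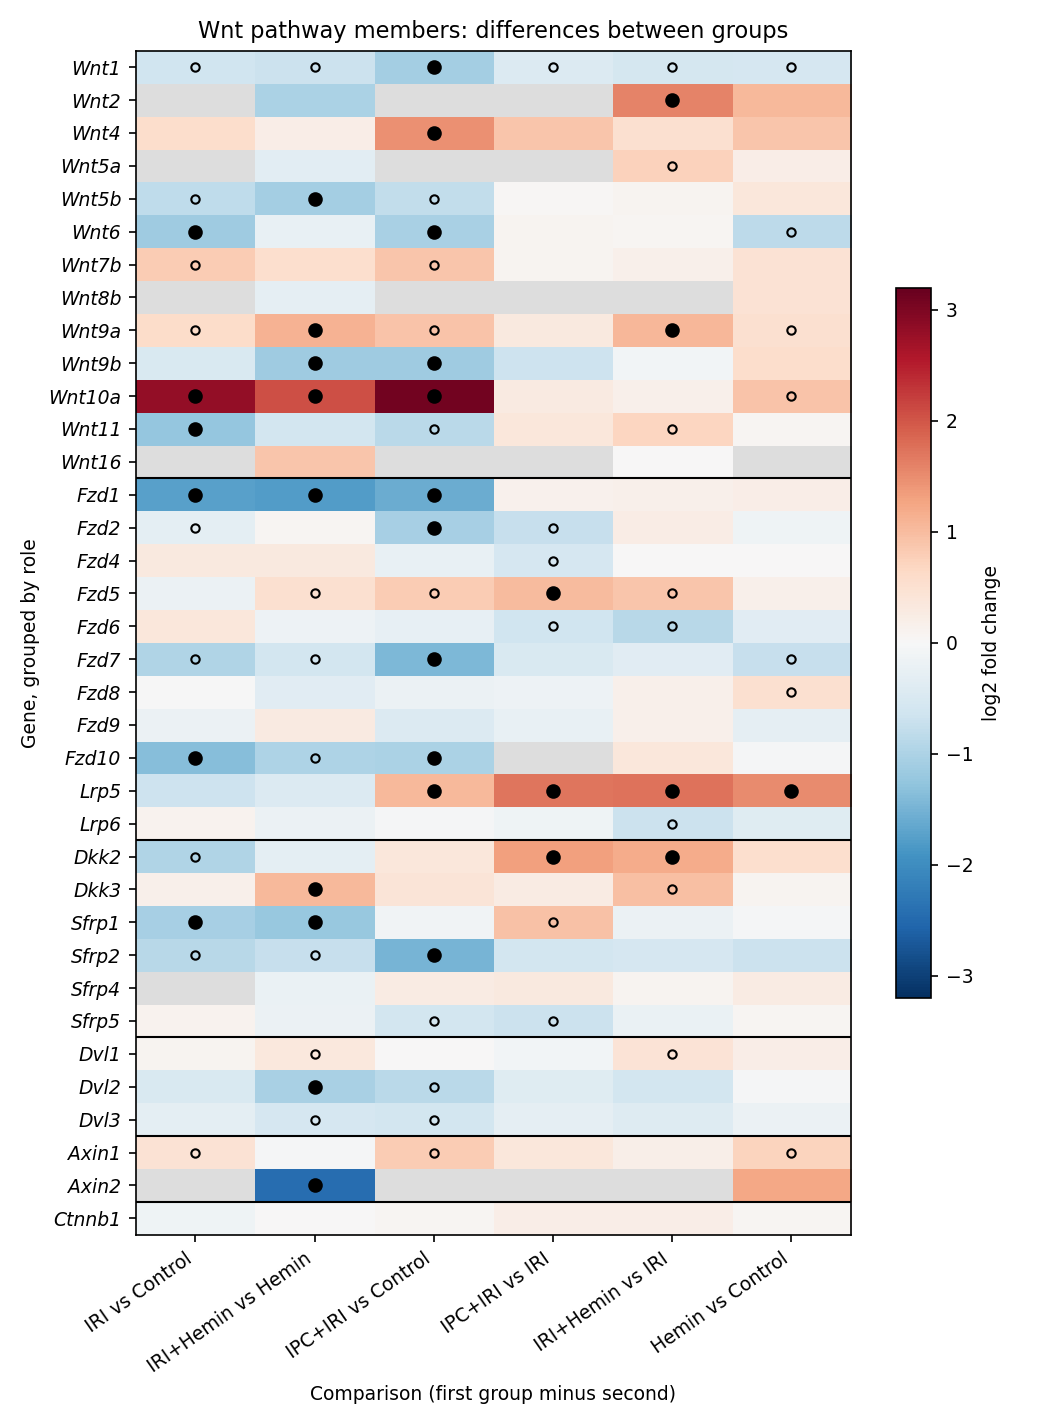
Log2 fold change (colour scale) of the 36 tested members, ordered by role from ligands at the top to Ctnnb1 at the bottom, in 6 comparisons of the first group minus the second. Open circles mark an adjusted p below 0.05, filled circles the same with 2-fold or more, and grey cells were not tested; Wnt10a and Fzd1 stand out in the first 3 columns and Lrp5 in the last 3.

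Comparisons that share no array can be set side by side. IRI vs Control and IRI+Hemin vs Hemin called 15 members each among the 30 tested in both, and 9 were called in the same direction in both, 60% of each list, with 0 in opposite directions. Over all genes the shares were 60% and 67%. The 9 were Wnt10a and Wnt9a, higher, and Wnt1, Wnt5b, Fzd1, Fzd7, Fzd10, Sfrp1 and Sfrp2, lower, of which Fzd10 was well above background on 1 IRI array. IPC+IRI vs Hemin, added after the data were seen because both groups were scanned on 1 day, called 16 of 35 members, 2 higher and 14 lower, where 36% of all genes were called, 13.2% higher and 22.8% lower. Of the lower calls, Axin2, Wnt2 and Fzd10 entered through Hemin, with 1, 2 and 2 IPC+IRI arrays well above background. Their p thus sets signal partly against background readings. The groups of this comparison differ in ischemia, preconditioning and hemin at once. IPC+IRI vs Hemin shared 9 calls with IRI vs Control in the same direction, 60% and 64.3% of the lists against 53.9% and 74.4% over all genes. These were Wnt10a, higher, and Wnt1, Wnt5b, Wnt11, Fzd1, Fzd2, Fzd7, Fzd10 and Sfrp2, lower, with Fzd10 well above background on 2 IPC+IRI arrays. In it, Wnt10a was at 2.19 ± 0.32 (SE, adjusted p = 6.42e-05) and Fzd1 at -1.81 ± 0.18 (SE, adjusted p = 1.06e-06).

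Hemin without ischemia was compared with no treatment at all. In Hemin vs Control, 8 of 35 were called, 5 higher and 3 lower, where 35.9% of all genes were called, 18.4% higher and 17.5% lower. This split turned with the scaling, to 16 higher and 0 lower without normalization between arrays and to 2 higher and 6 lower with scaling over probes well above background. Lrp5 was the 1 member past 2-fold, higher, with 8.16% of all genes called, 2.18% higher and 5.98% lower. Without normalization between arrays 11 members passed 2-fold, against 21.3% of all genes. Besides Lrp5, the members called were Axin1, Fzd8, Wnt9a and Wnt10a, higher, and Wnt1, Wnt6 and Fzd7, lower. Among these, Wnt9a turned to -0.19 with normexp correction and -0.01 in the deposited log2 values, and Wnt1 to 0.03 without normalization between arrays. Log2 fold changes of the 35 members tested had a median of 0.16, and those of all genes 0.06.

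Some markers of blood cells were called after ischemia and others were not. Of 9 leukocyte markers, 8 were tested in IRI vs Control, where S100a8, S100a9, Cd14 and Cd68 were called higher, Cd79a lower and Ptprc, Lyz2 and Cd3e were not called, against 17% and 33.7% of all genes. In IPC+IRI vs Control 6 of 9 were called higher and 1 lower, against 23.1% and 32.6% of all genes. In IRI+Hemin vs Hemin 4 of 8 were called higher and 0 lower, against 16.4% and 27.8%. For all 9, the log2 of their summed level was 1.63 to 2.34 in Control, 1.91 to 2.57 in Hemin, 3.15 to 4.00 in IRI, 3.13 to 4.36 in IRI+Hemin and 3.61 to 5.39 in IPC+IRI. The pan-leukocyte marker Ptprc averaged -2.87 in Control and -2.86 in IRI, while the neutrophil gene S100a8 averaged -4.30 and -0.25. Cd3e of T cells averaged -3.34 and -3.85, and Cd79a of B cells -4.00 and -5.07, with Cd79a well above background on 1 IRI array. The part of these cells in the changes of Wnt members was not tested.

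The other genes of the pathway were followed as lists. Their counts stand against shares of all genes called higher and lower of 17% and 33.7% in IRI vs Control, 23.1% and 32.6% in IPC+IRI vs Control, and 16.4% and 27.8% in IRI+Hemin vs Hemin. The shares were 26% and 17.7% in IPC+IRI vs IRI, 26.1% and 18% in IRI+Hemin vs IRI, and 18.4% and 17.5% in Hemin vs Control. Of 20 target genes of the canonical signal, 16 were tested in IRI vs Control, 7 higher and 1 lower, with a median log2 fold change of -0.03. The largest rises there were Fosl1, an AP-1 subunit, at 6.55 and Plaur, the urokinase receptor, at 4.71. In IPC+IRI vs Control 7 of 18 were higher and 2 lower, again led by Fosl1 at 5.12 and Plaur at 3.43. IRI+Hemin vs Hemin had 6 of 20 higher and 4 lower, with Fosl1 at 6.77 and Plaur at 3.75. Against IRI, preconditioned kidneys had 2 of 18 higher and 6 lower, led by Myc at -2.30 and Birc5 at 1.53. Hemin-treated ischemic kidneys had 1 of 17 higher and 8 lower, led by Myc at -1.71 and Fosl1 at -1.15. Hemin alone had 2 of 19 higher and 2 lower, with Myc at -1.40. These genes answer to many signals besides Wnt, and Myc, Fosl1 and Plaur are also early injury genes.

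Of the agonists and secretion genes, Rspo1, an R-spondin that strengthens the Wnt signal, was called at -1.40 in IRI vs Control, -1.13 in IRI+Hemin vs Hemin, 1.29 in IPC+IRI vs IRI and 1.18 in IRI+Hemin vs IRI. Over the list of 10, 0 of 5 tested were higher and 2 lower in IRI vs Control, 1 of 6 higher and 1 lower in IPC+IRI vs IRI, and 1 of 4 higher and 0 lower in IRI+Hemin vs IRI. Lgr6, an R-spondin receptor, was at -1.06 in IPC+IRI vs Control, where 0 of 7 were higher and 2 lower. Hemin vs Control had 1 of 6 higher and 3 lower, and IRI+Hemin vs Hemin 0 of 5 higher and 1 lower.

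Of 10 other secreted inhibitors, 9 were tested. In IRI vs Control 0 were higher and 3 lower, with Sostdc1 at -1.72 and Dkkl1 at -1.04 leading. In IRI+Hemin vs Hemin 1 was higher and 2 lower, with Sostdc1 at -1.66 and Apcdd1 at -1.33. IPC+IRI vs Control had 0 higher and 4 lower, with Igfbp4 at -1.22 and Dkkl1 at -1.18. Against IRI, IPC+IRI had 1 higher and 2 lower, with Igfbp4 at -1.54 and Sostdc1 at 1.06, and IRI+Hemin had 0 higher and 3 lower, with Igfbp4 at -1.03. Hemin vs Control had 0 higher and 3 lower, with Dkkl1 at -1.22. The list of 8 other receptors, of which 7 were tested, gave 0 higher and 2 lower in IRI vs Control and 1 higher and 4 lower in IPC+IRI vs Control, where Ror1 was at -1.39 and the ubiquitin ligase Znrf3 at -1.23. Znrf3 was at -1.04 in IPC+IRI vs IRI, with 1 higher and 3 lower. The counts were 3 and 3 in IRI+Hemin vs IRI, 2 and 3 in Hemin vs Control and 3 and 3 in IRI+Hemin vs Hemin.

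Of 22 genes of the destruction complex and its regulators, 8 were higher and 2 lower in IRI vs Control, led by Frat2, an inhibitor of GSK3, at 1.86 and Fam123b at -1.31. In IRI+Hemin vs Hemin 10 were higher and 1 lower, led by Csnk1e at 1.30 and Ctnnbip1 at -1.05. In IPC+IRI vs Control 9 were higher and 5 lower, led by Csnk1e at 2.25 and Gsk3a at -2.18. Gsk3a was at -2.30 and Fam123b at 1.87 in IPC+IRI vs IRI, with 5 higher and 6 lower, and Gsk3a at -2.06 and Fam123b at 1.98 in IRI+Hemin vs IRI, with 6 of 21 higher and 6 lower. In Hemin vs Control Gsk3a was at -2.15 and Apc2 at -1.22, with 4 higher and 6 lower. Gsk3a averaged -0.37 and -0.25 in Control and IRI and -2.31, -2.55 and -2.52 in IRI+Hemin, IPC+IRI and Hemin, the same division as for Lrp5, in which scan day and pretreatment cannot be told apart.

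Of 19 nuclear factors, 3 of 18 were higher and 3 lower in IRI vs Control, none by 2-fold. Ep300, a histone acetylase, was at -1.80 in IPC+IRI vs IRI, -1.64 in IRI+Hemin vs IRI, -1.72 in IPC+IRI vs Control and -2.01 in Hemin vs Control, and Chd8 at 1.34 and 1.06 in the last 2 of these comparisons. Ep300 averaged -2.18 and -2.10 in Control and IRI and -3.74, -3.89 and -4.19 in IRI+Hemin, IPC+IRI and Hemin, again with this division. Tcf7l1, listed on the array as Tcf3, was at 1.46 in IPC+IRI vs IRI and 1.45 in IRI+Hemin vs IRI. The counts were 3 higher and 4 lower, 5 of 17 higher and 8 lower, 4 of 18 higher and 5 lower and 4 of 18 higher and 5 lower in these comparisons in the order given for Ep300. Ischemia after hemin gave 2 higher and 3 lower, led by Tle2 at -1.82 and Lef1 at -1.38.

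Of 25 genes of the planar polarity and calcium branch, 24 were tested in IRI vs Control, 7 higher and 5 lower, led by Rock2, a kinase that acts on the cytoskeleton, at 2.07 and Camk2d, a calcium kinase, at 1.16. In IRI+Hemin vs Hemin 7 were higher and 5 lower, with Rock2 at 1.39 and Camk2b at 1.13, and in IPC+IRI vs Control 8 and 6, with Celsr2 at -1.78 and Rock2 at 1.62. Celsr2, a cadherin of planar polarity, was at -1.27 and Nfatc3 at 1.10 in IPC+IRI vs IRI, where 5 were higher and 5 lower. IRI+Hemin vs IRI had 5 of 24 higher and 4 lower, none by 2-fold. Hemin vs Control had 4 higher and 5 lower, with Celsr2 at -1.18.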

How the data were processed

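The deposited scanner output of each array holds intensity values that the authors obtained with Feature Extraction 9.5.3.1 from Agilent, as the labels give it, which subtracted a background from every spot, with no step between arrays. The authors also deposited a log2 matrix of the same signal, 18.1% of it blank, which served as an alternative. Flagged spots (0.12% to 0.38% of an array) were removed, spots of a probe averaged, each array divided by its 75th percentile, probes of a gene averaged and the log2 taken. Genes with at most 1 missing value and 3 of 4 arrays of a group well above background were tested with limma 3.58.1 in R 4.3.3 over the 20 arrays together, with 1 coefficient per group and 15 degrees of freedom left for the residual, instead of the SAM of the study's methods. The scripts were tested on simulated data. Bounds replace folds where no array of a group was well above background, and no fold is given where the bound is under 1. Every member is named, and members called at 2-fold or more, with Ctnnb1, Axin2, Lrp5, Fzd5 and Wnt10a, are given by array. Other pathway genes are given as counts, with the 2 largest changes of 2-fold or more of each list. Members and lists were chosen with earlier results of these data known. Genes carry the names printed in the scanner output. Precision is limited by 4 arrays per group. The replicate numbers were not used as pairs.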

Additional observations from a re-analysis of the deposited data

Results flagged for a closer look

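Within groups of 4 arrays, 6 of 99 groups tested held an array set apart from its companions by the gap to its neighbour (Dixon's test), where chance gives about 1 in 20. In IRI+Hemin these were Fzd1 on replicate 1 at -0.05, Wnt6 on replicate 3 at -3.66, and Fzd10 at -5.07, Dkk2 at -0.01 and Ctnnb1 at 3.21 on replicate 4. In IPC+IRI it was Wnt9b on replicate 4 at -4.54.

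Wnt6 differed in its response to ischemia with and without hemin, by 0.90 on the log2 scale in the limma interaction. The call was lost with normexp correction, without normalization, with quantile normalization and as a mean of log2 values over probes. It was also lost when most of the arrays were left out singly. Of 36 members 1 was called, against 7.77% of all genes.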

How the results depend on the processing

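Of 81 called results of single members, 21 kept direction and call under every setting run and 62 kept both when any 1 array was left out; 11 reversed under at least 1 setting. Normexp background correction called 5 members in IRI vs Control, 9 in IPC+IRI vs Control, 3 in Hemin vs Control, 9 in IRI+Hemin vs Hemin and 0 in the interaction, where 17.7%, 31.3%, 19.6%, 23.2% and 0.766% of all genes were called. It reversed Fzd10 (0.12), Fzd2 (0.05) and Wnt1 (0.03) in IRI vs Control, Fzd5 in IPC+IRI vs IRI (-0.07), Fzd5 (-0.14), Wnt11 (-0.15), Wnt2 (-0.38), Wnt5a (-0.49) and Wnt9a (-0.01) in IRI+Hemin vs IRI, and Wnt9a in Hemin vs Control (-0.19). This correction adds an offset of 50 intensity units, where the 75th percentile of the processed signal was 146.7 to 357.9. Readings of dim members then follow the offset more than their own signal. A lost call or a turned sign there does not show that a difference is absent. Without normalization between arrays 4 members were called in IPC+IRI vs IRI, 16 in Hemin vs Control, 10 in IRI+Hemin vs Hemin and 0 in the interaction, against 36.2%, 49.8%, 26% and 2.11% of all genes, the median of all genes moved to 0.62 in Hemin vs Control and 0.41 in IPC+IRI vs IRI, and Sfrp1 (0.53) and Wnt1 (0.03) changed sign in Hemin vs Control. Calls of members given above that were also lost without that normalization were Dvl2, Dvl3, Wnt5b, Wnt9b, Wnt11 and Fzd10 in IPC+IRI vs Control, Wnt7b, Wnt9a and Sfrp2 in IRI vs Control, Wnt6 and Fzd7 in Hemin vs Control, Fzd2, Fzd4, Fzd6 and Sfrp5 in IPC+IRI vs IRI, and Fzd6, Lrp6 and Wnt1 in IRI+Hemin vs IRI. Quantile normalization lost Wnt1 and Fzd2 in IRI vs Control and Wnt11 in IRI+Hemin vs IRI. The deposited log2 table called 6 of 30 members tested in IRI+Hemin vs IRI, against 41.3% of all genes, and reversed Wnt9a in Hemin vs Control (-0.01). The mean of log2 values over probes called 5 in Hemin vs Control and 0 in the interaction, against 32.3% and 7.1% of all genes. In the interaction quantile normalization called 0, against 6.89% of all genes. Scaling over probes well above background and the fit of the compared arrays alone each called 2 there, against 9.46% and 8%. The cause was not tested. With 1 array left out, counts ran from 11 to 16 in IRI vs Control, 7 to 12 in IPC+IRI vs IRI, 18 to 22 in IPC+IRI vs Control, 10 to 14 in IRI+Hemin vs IRI, 6 to 11 in Hemin vs Control, 13 to 17 in IRI+Hemin vs Hemin and 0 to 1 in the interaction. In this order, the share of all genes called ran from 46.6% to 48.6%, 38.1% to 42%, 50.7% to 57.2% and 38.8% to 41.9%. For the last 3 it ran from 27.2% to 41.1%, 38.1% to 44.7% and 5.17% to 8.33%. The replicate numbers do not pair the arrays, since the deviations of same-numbered arrays correlated at -0.28 to 0.18 and 7 of 24 pairs correlated best with their own number. With the replicate block 14, 9, 19, 11, 7, 15 and 1 members were called in the same order of comparisons. The shares of all genes were 48.8%, 41.6%, 54.1%, 41.8%, 33.7%, 41.9% and 6.68%. The slide as a random block could not be fitted, since each group has its own slide. The comparison of IPC+IRI with Hemin, a variance trend and fits of single probes were added after the data were seen. Signal near background limits Wnt2, Wnt5a, Axin2 and Fzd10.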
